A study of Mus musculus with 14 samples.

Results

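The 10 genes of alternative activation and PPAR gamma biology were followed in mouse bone marrow-derived dendritic cells given a cathepsin inhibitor and then a microbial or an inflammatory stimulus. The genes were taken by name: the receptor chains Il4ra and Il13ra1, the transcription factors Pparg, Klf4 and Egr2, and the effectors Retnla, Chil3, Alox15, Ccl24 and Fabp4. Each was read from its single-gene probe set with the highest mean level over the 14 arrays. They are 10 of the 18193 genes with such a probe set, and all 10 are among the 12172 genes bright enough to be tested. Marrow progenitors of BALB/c mice were grown for 8 days in recombinant GM-CSF, treated for 1 h with solvent (0.01% DMSO) or with an inhibitor at 5 µM, and then left alone or stimulated. The 7 groups were DMSO, CLIK148 (an inhibitor of cathepsin L) and CA074Me (an inhibitor of cathepsin B) without stimulus, DMSO or CLIK148 followed by CpG at 25 µg/mL, and DMSO or CA074Me followed by TNF-alpha at 500 U/mL. CpG, an unmethylated DNA motif sensed by Toll-like receptor 9, is labelled pro-Th1 in the study and TNF-alpha pro-Th2. CLIK148 was not combined with TNF-alpha, nor CA074Me with CpG. The whole design was run in 2 independent experiments, with 1 array per group in each, so n = 2 arrays per group. The sources used here do not give the time from stimulus to harvest or how many mice contributed to a culture.

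Interleukin-4 and interleukin-13 act through the receptor chain encoded by Il4ra, which pairs with the common gamma chain or with the chain encoded by Il13ra1 and signals through STAT6. In macrophages and dendritic cells this signal induces the set of genes called alternative activation, among them Retnla, which encodes the secreted resistin-like molecule alpha, and Chil3, which encodes the chitinase-like protein Ym1. Pparg encodes PPAR gamma, a nuclear receptor for fatty acid ligands that binds DNA with RXR, and Fabp4, a fatty acid carrier, is one of its best known targets. Alox15, a lipoxygenase that oxygenates polyunsaturated fatty acids, and Ccl24, an eosinophil-attracting chemokine, are further genes of this response. Klf4 and Egr2 are zinc finger transcription factors that act in the differentiation and polarisation of myeloid cells.

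The promoters of Retnla, Chil3 and Klf4 are shown because Retnla and Chil3 are both effector genes of the interleukin-4 response but differed in their gap between the experiments, and Klf4 because it passed limma with the block for CpG in solvent and for TNF-alpha after CA074Me. The sequences are the 250 bases before the start of the gene, from RefSeq (assembly GRCm38.p6), written 5′ to 3′ on the strand of the gene, and capitals mark a motif match. Retnla lies at chr16:48842359-48842608 on the plus strand, Chil3 at chr3:106167565-106167814 on the minus strand and Klf4 at chr4:55532476-55532725 on the minus strand.
Retnla: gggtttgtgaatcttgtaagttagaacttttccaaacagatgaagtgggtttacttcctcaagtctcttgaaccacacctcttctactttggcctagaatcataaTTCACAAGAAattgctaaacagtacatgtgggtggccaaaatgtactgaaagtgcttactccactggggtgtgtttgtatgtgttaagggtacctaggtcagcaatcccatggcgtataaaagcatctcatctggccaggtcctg
Chil3: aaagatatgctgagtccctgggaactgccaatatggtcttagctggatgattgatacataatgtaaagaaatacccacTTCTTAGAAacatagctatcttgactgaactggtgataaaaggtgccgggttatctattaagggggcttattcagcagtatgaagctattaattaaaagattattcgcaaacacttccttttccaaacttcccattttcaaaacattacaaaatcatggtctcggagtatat
Klf4: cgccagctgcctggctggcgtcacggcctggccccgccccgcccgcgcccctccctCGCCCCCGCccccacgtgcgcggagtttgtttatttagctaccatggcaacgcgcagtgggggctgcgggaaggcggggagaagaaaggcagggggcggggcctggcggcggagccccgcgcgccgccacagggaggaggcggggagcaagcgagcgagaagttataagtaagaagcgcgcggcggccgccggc
The capitals in Retnla mark TTCACAAGAA, from base -145 to base -136 counted from the start, a match to the STAT motif of TTC and GAA with 4 free bases between. Of the 32851 RefSeq promoter windows, each 250 bases before to 50 after a start, 6.95% hold it. Those in Chil3 mark TTCTTAGAA, from base -172 to base -164, a match to the 3-base spaced STAT motif TTCNNNGAA held by 8.3% of windows. Those in Klf4 mark CGCCCCCGC, from base -194 to base -186, which is the EGR motif GCGGGGGCG on the opposite strand. That motif was held by 2.91% of windows, Il13ra1 among them, where it lies from base -78 to base -70. Il4ra and Pparg held matches to the KLF motif GGGTGNGGC, present in 5.13% of windows. Windows of 7 of the 10 genes (13 windows in all) were searched on both strands, and none of them held the PPAR and RXR repeat of AGGTCA with 1 free base between the copies (0.0396% of windows), the EGR motif GCGTGGGCG (0.612%) or the NF-kB motif of GGGA and TTTCC with 1 free base between (0.411%). Alox15, Ccl24 and Fabp4 were not in the promoter table. These matches describe the letters of the windows and do not show that a factor binds there.

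Levels are the deposited log2 expression values, so a difference of 1 is a factor of 2, and a level is compared only with the same gene's level on other arrays. All 10 dendritic cell markers checked, such as Itgax and H2-Ab1, were bright enough to test, and the log2 of their summed level lay between 16.5 and 16.8 on the arrays of both experiments. Granulocyte markers (9 of 9 on the array) and macrophage markers (9 of 9) were bright as well. Of the 5 lymphoid and plasmacytoid markers on the array 3 were tested, with a summed level of 9.24 to 9.31. In these bulk cultures a lower level can mean fewer cells of a type or less RNA per cell, and these cannot be told apart. The deviations of arrays of the same experiment from their group means correlated with r from 0.455 to 0.935 over the 21 pairs of groups, so each comparison is given in both experiments, and the fit with the experiment as a block is printed beside the fit without it.

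**Figure D1:**
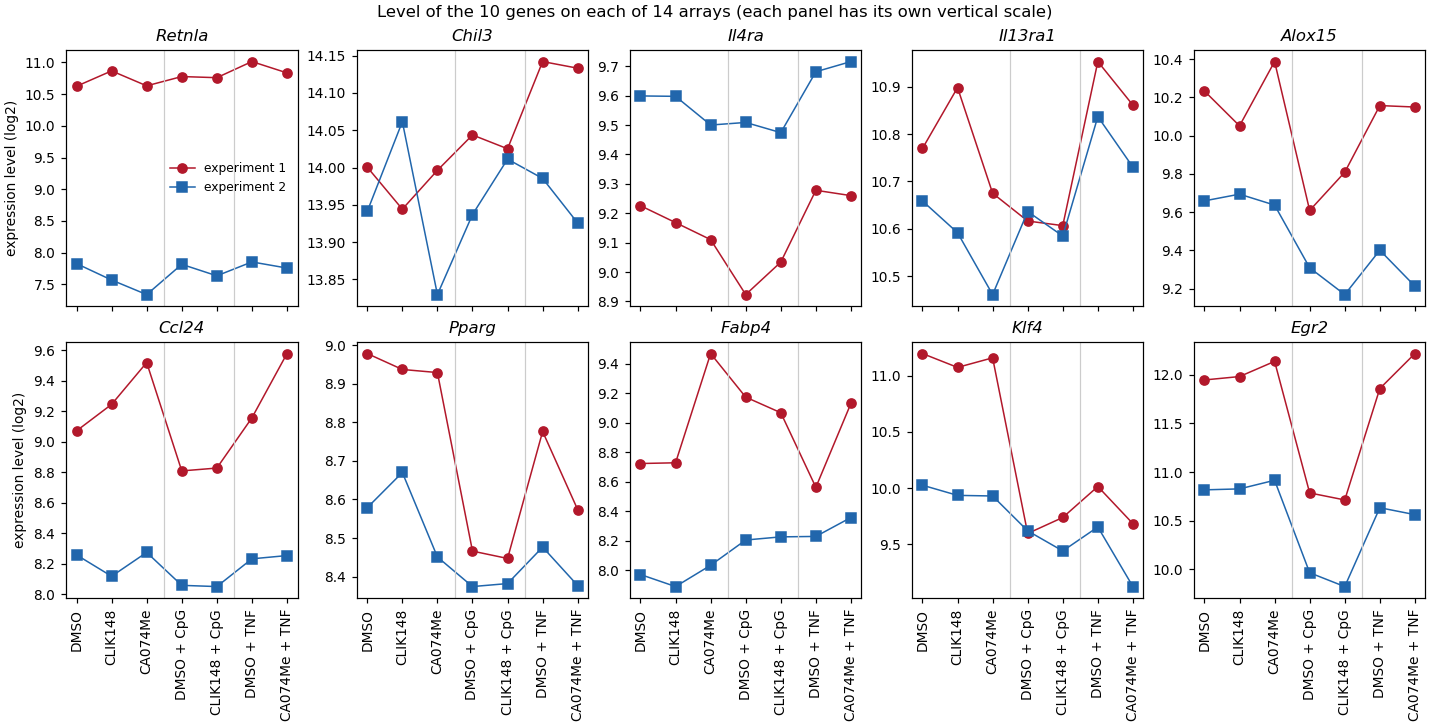
Expression level (log2) of each of the 10 genes in the 7 treatment groups, 1 point per array, with experiment 1 in red circles and experiment 2 in blue squares and a separate vertical scale per panel. Egr2 is lowest in both CpG groups, Klf4 is lower in all 4 stimulated groups, and Retnla separates the experiments (10.62 to 11.01 against 7.34 to 7.85).

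Egr2, Klf4, Pparg and Alox15 were lower with CpG when each experiment was compared with itself. In solvent-treated cells 7 of the 10 genes were lower with CpG in both experiments, against 41.7% of all tested genes, and 1, Fabp4, was higher in both (25.4%). In the limma fit without the experiment 0 of the 10 passed an adjusted p under 0.05 (Benjamini-Hochberg, 0 of 10 at unadjusted p under 0.05), where 1.92% of all genes did. With the experiment as a block 4 of the 10 passed, all lower, where 19.9% of all genes passed and 13.7% passed lower. The median difference of the 10 genes was -0.21 log2, beside -0.05 over all genes tested. In 5 of the 10 genes (Il13ra1, Alox15, Pparg, Klf4 and Egr2) both CpG arrays lay below both solvent arrays, as in 26.5% of all genes.

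Egr2 (chr10:67534469-67542188, GRCm38.p6, as for all gene positions here) stood at 11.95 and 10.82 in the solvent arrays of experiments 1 and 2, and at 10.79 and 9.97 with CpG. The differences were -1.16 and -0.85 log2, and the highest CpG array lay just below the lowest solvent array. The mean was 11.38 ± 0.80 (SD, n = 2) without and 10.38 ± 0.58 with CpG, a 2.01-fold lower level. The difference of -1.01 ± 0.74 (SE) log2 did not pass limma without the block (adjusted p = 0.507) and passed with it (95% interval -1.38 to -0.63, adjusted p = 0.00617). With CpG after CLIK148 the blocked fit called 2 of the 10 genes, Egr2 and Pparg, where 17.1% of all genes passed (0 of 10 and 0.813% without the block). As in solvent, 7 genes were lower in both experiments (50.4% of all genes) and Fabp4 alone was higher in both (24.0%), and the groups did not overlap for Pparg, Klf4 and Egr2, all lower (32.5%). Egr2 was at 11.98 and 10.83 with CLIK148 alone and at 10.71 and 9.82 with CpG. That difference was -1.14 log2 (interval with the block -1.51 to -0.76, limma adjusted p = 0.00506, and 0.458 without the block). In each experiment the 2 CpG groups were the lowest of the 7, and the next group stood at 11.86 in experiment 1 and at 10.56 in experiment 2. The other Egr2 probe set gave -0.97 log2 for CpG in solvent.

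Klf4 (chr4:55527137-55532475) was at 11.20 and 10.03 in the solvent arrays and at 9.60 and 9.62 with CpG. The experiments started 1.17 log2 apart and ended 0.02 apart, so the difference was -1.60 in experiment 1 and -0.41 in experiment 2. The mean difference of -1.004 log2 was called with the block (interval -1.67 to -0.34, limma adjusted p = 0.0441) and not without it (0.342). After CLIK148 it was at 11.07 and 9.94 without stimulus and 9.74 and 9.44 with CpG, a difference of -0.92 log2 that was called in neither fit (limma adjusted p = 0.0616 with the block, 0.399 without). In both of these comparisons no stimulated array reached the level of an unstimulated one. Its second probe set gave -0.87 log2 for CpG in solvent.

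Pparg (chr6:115360879-115490404) was at 8.98 and 8.58 with solvent alone and at 8.47 and 8.37 with CpG. All CpG arrays, with or without CLIK148, lay between 8.37 and 8.47, below every unstimulated solvent or CLIK148 array. The difference was -0.36 log2 in solvent (-0.51 and -0.20 by experiment) and -0.39 after CLIK148 (-0.49 and -0.29). With the block both passed limma (adjusted p = 0.0389 and 0.0333), and without it neither did (0.358 and 0.340).

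Alox15 (chr11:70344147-70390538) was at 10.23 and 9.66 with solvent alone and at 9.61 and 9.31 with CpG. The CpG array of experiment 1 lay just under the solvent array of experiment 2, so the groups did not overlap. The difference of -0.49 log2 (-0.62 and -0.35) passed limma with the block (adjusted p = 0.0415) and not without (0.561). After CLIK148, where Alox15 was at 10.05 and 9.69 without and 9.81 and 9.17 with CpG, the groups overlapped and the difference of -0.38 passed in neither fit (adjusted p = 0.0880 with the block in limma).

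The calls with CpG depended on single arrays. Without the solvent array of experiment 1 the blocked limma fit called 0 of the 10 genes with CpG in solvent, Egr2 being at 0.0573. It called only Egr2 when the other solvent array or the CpG array of experiment 1 was left out. Without the CpG array of experiment 2 it called 5, Il4ra being the addition, and the Klf4 difference, -0.60 without the CpG array of experiment 1, was then -1.41 log2. After CLIK148 the calls of Egr2 and Pparg were both lost without the CLIK148 array of experiment 1 or the CLIK148 plus CpG array of experiment 1, and Egr2 alone was called without the CLIK148 array of experiment 2.

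The receptor genes differed less with CpG. Il4ra (chr7:125552271-125579474) was at 9.23 and 9.60 with solvent and at 8.92 and 9.51 with CpG, a difference of -0.20 log2 with overlapping groups (limma adjusted p = 0.0600 with the block and 0.751 without). Il13ra1 (chrX:36112108-36171262) was at 10.77 and 10.66 with solvent and at 10.62 and 10.64 with CpG, a difference of -0.09 log2 (adjusted p = 0.463 with the block in limma). Its other probe sets did not share that direction: of the 3 other bright ones, 2 stood at 0.23 and 0.20 log2 with CpG and 1 at -0.06. No direction can be given for Il13ra1 under CpG. The Il4ra probe sets of lower level gave -0.07 and 0.01 log2.

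The remaining effectors were not called with CpG. Retnla (chr16:48842609-48844461) was at 10.62 and 7.83 with solvent and at 10.78 and 7.82 with CpG, a difference of 0.07 log2 with a blocked interval of -0.19 to 0.33. In experiment 2 Retnla lay at 7.34 to 7.85, around the overall median of 7.52 used as the cut for bright genes. Its differences in that experiment, with any treatment, are therefore read near the cut. Lower readings were still seen there: with CA074Me alone Retnla was at 7.34 against 7.83 with solvent, a difference of -0.49 log2. In experiment 1 that difference was 0.01 log2, and the mean of -0.24 had a blocked interval of -0.50 to 0.02. Chil3 (chr3:106147554-106167564) was at 14.00 and 13.94 with solvent and at 14.04 and 13.94 with CpG, and its 14 arrays all lay between 13.83 and 14.14. The difference of Chil3 was 0.02 log2, with a blocked interval of -0.16 to 0.20. Ccl24 (chr5:135569935-135573123) was at 9.07 and 8.26 with solvent and at 8.81 and 8.06 with CpG (-0.23 log2, limma adjusted p = 0.279 with the block). Fabp4 (chr3:10204342-10208616), the PPAR gamma target, was at 8.72 and 7.97 with solvent and at 9.17 and 8.20 with CpG. Its difference of 0.34 log2 was opposite in sign to that of Pparg, in both experiments and also after CLIK148 (0.34 log2), and was not called (adjusted p = 0.234 and 0.242 with the block in limma).

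**Figure D2:**
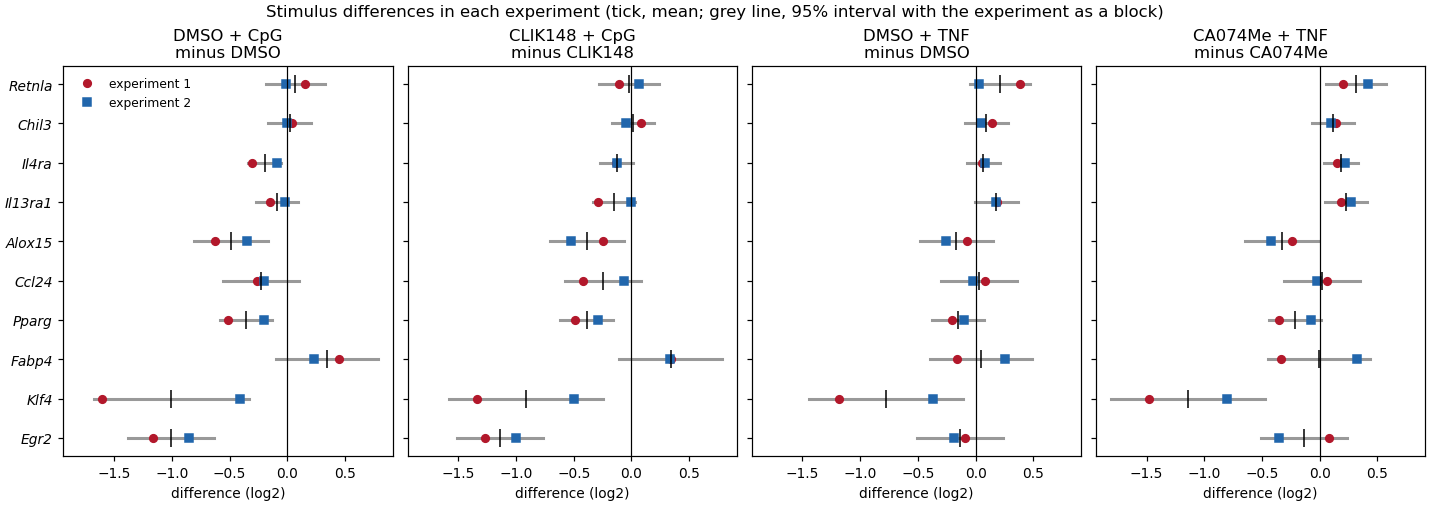
Difference (log2) between stimulated and unstimulated cells for each of the 10 genes in 4 comparisons; red circles and blue squares are experiments 1 and 2, the tick is their mean and the grey line the 95% interval with the experiment as a block. Egr2 lies far below 0 with CpG (-1.01 and -1.14) and near 0 with TNF-alpha (-0.14 in both), whereas Klf4 lies below 0 in all 4 panels.

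With TNF-alpha the 10 genes split, and Klf4 was the one with a large difference. In solvent-treated cells 4 genes were lower in both experiments (Alox15, Pparg, Klf4 and Egr2), against 48.4% of all genes, and 4 were higher in both (Retnla, Chil3, Il4ra and Il13ra1), against 24.8%. After CA074Me 3 were lower in both (41.8%), Egr2 no longer among them, and the same 4 were higher (32.5%). In each of these pairs of groups the arrays did not overlap for Klf4, on the lower side (26.2% of all genes in solvent and 25.8% after CA074Me), or for Il13ra1, on the higher side (14.3% and 19.3%). With TNF-alpha in solvent 0 of the 10 passed limma, without the block (0 at unadjusted p under 0.05) or with it (1, Klf4, at unadjusted p under 0.05), where 0.115% and 3.11% of all genes passed. The median difference in solvent was 0.04 log2, beside -0.05 over all genes. The solvent arrays are the same ones that the CpG comparison used.

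Klf4 was at 11.20 and 10.03 with solvent and at 10.01 and 9.65 with TNF-alpha. The TNF-alpha array of experiment 1 was just under the solvent array of experiment 2, and the difference of -0.78 log2 (-1.18 and -0.37) did not pass limma with the block (adjusted p = 0.182). After CA074Me it was at 11.16 and 9.93 without and 9.68 and 9.12 with TNF-alpha. That difference of -1.14 log2 (-1.48 and -0.81) passed with the block (interval -1.81 to -0.47, limma adjusted p = 0.0411) and not without it (0.421). It was the only call among the 10 genes there, where 11.1% of all genes passed with the block and 1.31% without, and 6.16% passed lower with the block. The call depended on single arrays, as did the number of genes called over the whole array. With the block the Klf4 difference was -0.82 and -1.46 log2 without the CA074Me array of experiment 1 or 2. It was -1.07 and -1.21 without the CA074Me plus TNF-alpha array of experiment 1 or 2. The difference between the TNF-alpha responses after CA074Me and in solvent was itself not called for any of the 10 genes, nor for any other gene tested.

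Il13ra1 was at 10.77 and 10.66 with solvent and at 10.95 and 10.84 with TNF-alpha, and at 10.67 and 10.46 with CA074Me against 10.86 and 10.73 with CA074Me and TNF-alpha. Both TNF-alpha arrays lay above both unstimulated arrays in each pair of groups, by 0.18 and 0.23 log2 in the mean, and neither difference passed limma (adjusted p = 0.249 and 0.107 with the block). After CA074Me 2 of its other probe sets did pass when all probe sets were tested with the block, at 0.47 and 0.40 log2 (limma adjusted p = 0.00723 and 0.0175), and the bright probe sets all had a positive sign. Il4ra was at 9.11 and 9.50 with CA074Me and at 9.26 and 9.72 with TNF-alpha added, 0.18 log2 higher (adjusted p = 0.104 with the block in limma). Retnla was at 10.63 and 7.34 with CA074Me and at 10.83 and 7.76 with TNF-alpha added, 0.31 log2 higher (interval with the block 0.05 to 0.57, limma adjusted p = 0.120).

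Egr2 separated the stimuli most. It was at 10.79 and 9.97 with CpG and at 11.86 and 10.63 with TNF-alpha in solvent, a difference of -0.87 log2 (-1.07 and -0.67). The lower TNF-alpha array lay under the higher CpG array, so the groups overlapped across experiments, and limma did not call the difference (adjusted p = 0.0779 with the block, 0.965 without). Of the 10 genes 9 were lower with CpG than with TNF-alpha in both experiments, against 33.9% of all genes, and 0 were higher in both (27.4%). In 3 of them, Il13ra1, Pparg and Klf4, the groups did not overlap (12.5% of all genes on that side). In limma 0 of the 10 passed in either fit (1 at unadjusted p under 0.05 without the block and 4 with it). Over all genes 0.00822% passed without the block and 0.435% with it. The exception to the direction was Fabp4, at 0.61 and -0.02 log2. Il13ra1, at 10.62 and 10.64 with CpG and 10.95 and 10.84 with TNF-alpha, differed by -0.27 log2 (limma adjusted p = 0.179 with the block). That value and its place in the counts above rest on the kept probe set. Against solvent, its other bright probe sets stood at 0.23, 0.20 and -0.06 log2 with CpG. The same probe sets, in that order, stood at 0.24, 0.17 and 0.10 with TNF-alpha, so they did not all share the difference.

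Neither inhibitor gave a called difference in any of the 10 genes. In limma 0 of the 10 passed for CLIK148 alone, CA074Me alone, CLIK148 against CA074Me, CLIK148 under CpG or CA074Me under TNF-alpha, with or without the block, and 0 of the 10 had an unadjusted p under 0.05. Over all genes these comparisons called 0 genes, except 1 gene (0.00822%) for CA074Me under TNF-alpha with the block. The solvent arrays are shared by the comparisons of CLIK148 alone and CA074Me alone. The largest difference in size was 0.11 log2 for CLIK148 alone and also under CpG, 0.40 for CA074Me alone and 0.43 under TNF-alpha. The median interval of a gene with the block reached 0.29 log2 to either side, so differences of that size could not be told from 0.

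Fabp4 had the largest difference with CA074Me alone, at 8.72 and 7.97 with solvent and 9.47 and 8.03 with the inhibitor. Nearly all of it came from experiment 1 (0.75 against 0.06), and the mean of 0.40 log2 had a blocked interval of -0.04 to 0.85. Under TNF-alpha it was at 8.56 and 8.23 with solvent and 9.13 and 8.36 with CA074Me, 0.35 log2 higher (interval -0.09 to 0.79). Ccl24 went the same way, at 9.07 and 8.26 with solvent against 9.52 and 8.27 with CA074Me, and at 9.16 and 8.23 against 9.58 and 8.25 under TNF-alpha. Its differences were 0.45 and 0.42 log2 in experiment 1 and 0.02 in experiment 2 both times. Klf4 under TNF-alpha was at 10.01 and 9.65 with solvent and 9.68 and 9.12 with CA074Me (-0.43 log2, interval -1.10 to 0.24).

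The inhibitors were compared with each other at the same dose of 5 µM and the same 1 h. Fabp4 was at 8.73 and 7.89 with CLIK148 and 9.47 and 8.03 with CA074Me, lower with CLIK148 in both experiments (-0.44 log2, lower bound -0.89, and the upper bound just above 0). Retnla was at 10.87 and 7.57 with CLIK148 and 10.63 and 7.34 with CA074Me, higher with CLIK148 by 0.24 and 0.23 log2 (interval of the mean -0.03 to 0.49). Over the 10 genes the blocked intervals reached from -0.89 to 0.63 log2, and a p that misses the threshold does not show that the compounds act alike. The interaction of CLIK148 with CpG lay between -0.13 and 0.10 log2 over the 10 genes and that of CA074Me with TNF-alpha between -0.36 and 0.12. In either, 0 of 10 passed limma, and so did 0 of all 12172 genes tested, with or without the block.

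**Figure D3:**
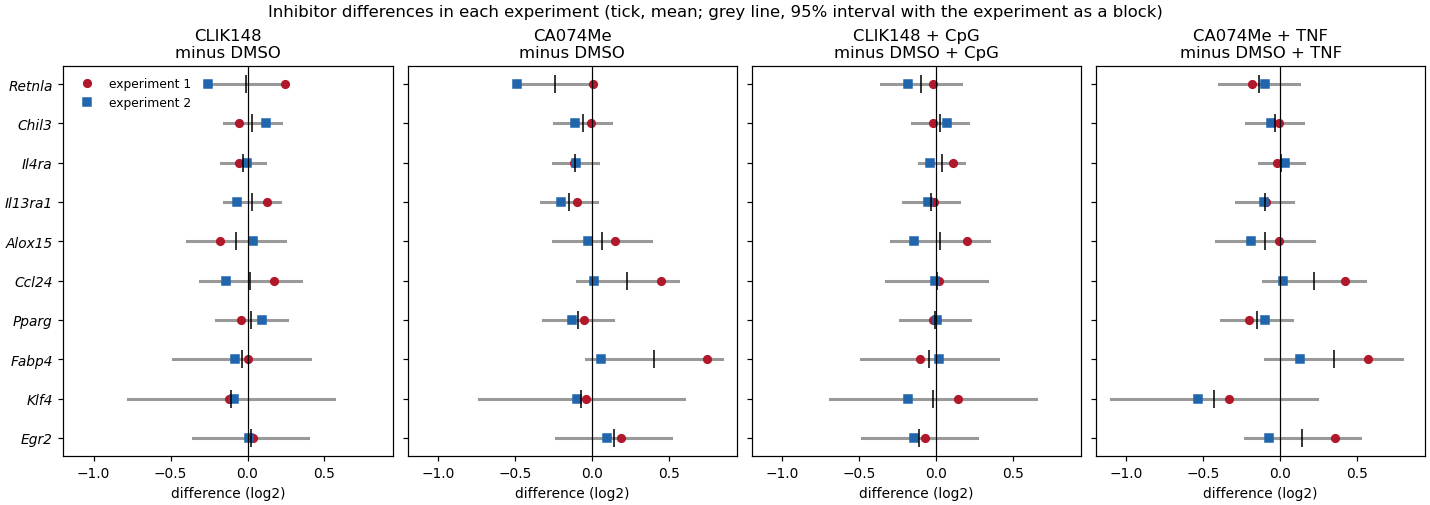
Difference (log2) between inhibitor and solvent for each of the 10 genes, alone and under the stimulus; symbols, ticks and grey lines as in the plot of stimulus differences. The grey 95% intervals with the experiment as a block all include 0, and Fabp4 with CA074Me alone (0.75 and 0.06) shows the widest split between experiments on the positive side.

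Genes around the 10 moved in both directions with CpG. Among other alternative activation markers 5 of 22 tested passed limma without the block (1.92% of all genes), 2 higher and 3 lower, and 13 passed with it (19.9%), 5 higher and 8 lower. Of the lectin receptor genes, Clec10a changed by -2.08 log2 in experiment 1 and -1.12 in experiment 2, and Mgl2 by -1.64 and -1.08. The chemokine gene Ccl22 rose by 1.41 and 0.76 log2. With the block the largest further changes were in Cdh1, the gene of E-cadherin, which fell by 1.87 log2 (limma adjusted p = 0.00244, 0.320 without), and Cd209a, a lectin gene, which fell by 1.48 (0.0234, 0.162 without). The list median was -0.02 log2, beside -0.05 over all genes.

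In the list of interleukin-4 and interleukin-13 signalling 0 of 14 tested passed without the block and 3 with it (limma), where 1.92% and 19.9% of all genes passed, which also holds for the lists that follow. Stat3 and Jak2, a transcription factor and a kinase of cytokine receptors, were higher by 0.52 and 0.31 log2, and Irs2, an adaptor of the interleukin-4 receptor, fell by 0.34. Among 21 PPAR gamma partners and lipid targets 0 passed without the block and 4 with it. Cd1d1, which presents lipid antigens, was 1.08 log2 higher, whereas the coactivator gene Ppargc1b fell by 0.84 and Rxra, the partner of PPAR gamma, by 0.40. The KLF and EGR list had 0 of 16 called without the block and 4 with it, all lower. Egr1 fell by 1.39 log2, Klf13 by 0.55 and Egr3 by 0.46 with the block. Of 8 lipoxygenase pathway genes 1 passed without the block and 3 with it, all lower. Alox5ap, the 5-lipoxygenase activating protein gene, fell by 0.53 log2 (limma adjusted p = 0.0390), and with the block Alox5 and Lta4h fell by 0.74 and 0.70. Medians of these 4 lists were 0.18, -0.01, -0.01 and -0.29 log2.

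After CLIK148 the blocked fit called 3 of 14, 9 of 22, 1 of 21, 2 of 16 and 4 of 8 genes of the same lists with CpG, given in the order of interleukin-4 and interleukin-13 signalling, other alternative activation, PPAR gamma, KLF and EGR, and lipoxygenase, where 17.1% of all genes passed. Without the block only Clec10a and Mgl2 passed. Egr1 was again lower (-1.54 log2), as were Lta4h (-0.96) and Cdh1 (-1.73).

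With TNF-alpha in solvent Mgl2 alone of the 5 lists passed without the block (-1.28 log2, limma adjusted p = 0.0348). With the block 5 of 22 other alternative activation markers passed (3.11% of all genes), 1 higher and 4 lower, with Cdh1 at -1.63 and Clec10a at -1.26 log2. Of the other lists 1 gene each passed in 3, namely Jak2 at 0.33, Ncoa4 at 0.25 and Egr1 at -1.16 log2. In the lipoxygenase list 0 of 8 passed, and Lta4h and Alox5 were both at -0.53 log2. After CA074Me the blocked fit called 2 of 14, 12 of 22, 2 of 21, 2 of 16 and 3 of 8 genes with TNF-alpha in the same order of lists (11.1% of all genes), and the fit without the block 4, all other alternative activation markers. Egr1 (-1.34 log2) and Egr3 (-0.44) were lower there too, while Egr2 itself was at -0.14. With the inhibitors none of these list genes passed limma, with or without the block; with CA074Me alone Arg1, the arginase gene, was at -0.70 log2 (-0.96 and -0.44), the largest difference of the 5 lists there.

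**Figure D4:**
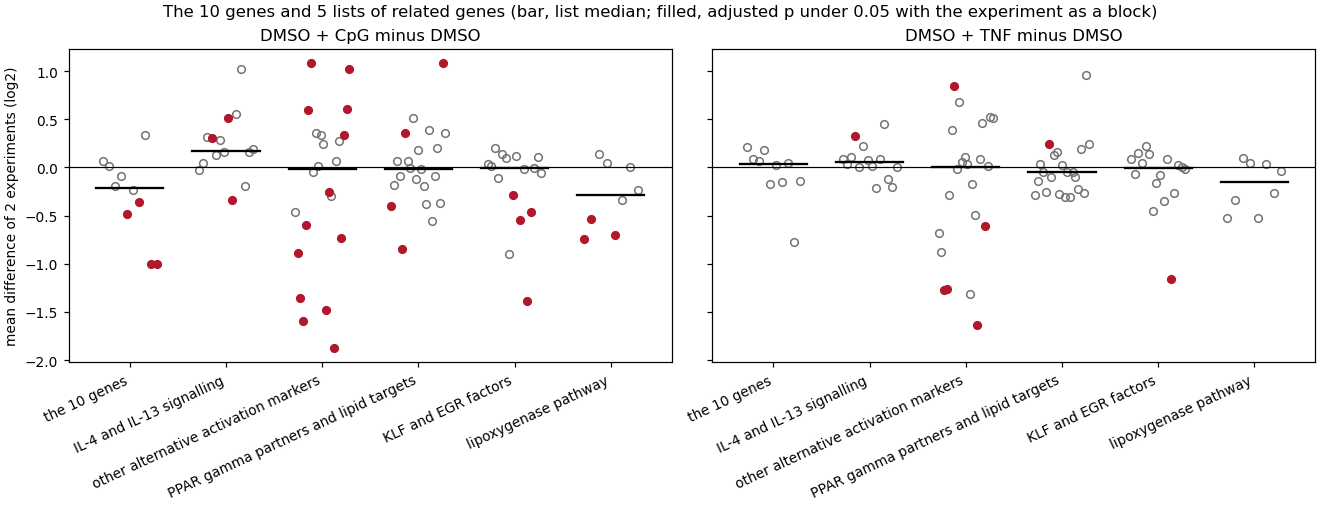
Mean difference (log2) over the 2 experiments for the 10 genes and the genes of 5 related lists, with CpG (left) and with TNF-alpha (right) in solvent; each point is a gene, the bar is the list median, and filled points passed an adjusted p under 0.05 with the experiment as a block. With CpG 4 of the 10 genes are filled, all below 0, and with TNF-alpha 0 are.

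The gap between the experiments was larger than any treatment difference for Retnla. The mean gap also exceeded the largest mean treatment difference for Ccl24, Fabp4, Alox15, Il4ra and, narrowly, Egr2. It did not for Klf4, Pparg, Il13ra1 or Chil3. This is a description, since the 7 arrays of an experiment belong together and are not independent repeats of the gap. Retnla lay between 10.62 and 11.01 in experiment 1, with a mean of 10.79, and between 7.34 and 7.85 in experiment 2, with a mean of 7.69. The gap of 3.10 log2 (2.80 to 3.30 over the 7 groups), or 8.57-fold, was the 4th largest of 12172 genes. The 3 genes above it, named after their values were seen, were Rnase2a (4.67 log2), an eosinophil-associated ribonuclease gene, the fibronectin gene Fn1 (4.14) and Mucl1 (3.12). Within an experiment Retnla varied over only 0.39 and 0.51 log2 across the 7 groups.

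Egr2 was higher in experiment 1 by 1.16 log2 in the mean (0.82 to 1.65), Ccl24 by 0.99 (0.75 to 1.32), Fabp4 by 0.85 (0.33 to 1.44), Alox15 by 0.62 (0.30 to 0.94) and Pparg by 0.26 (0.07 to 0.48). With Retnla these make 6 of 10 genes higher in experiment 1 in all 7 groups, against 9.97% of all genes. Il4ra was the 1 gene lower in all 7 (-0.44 log2, -0.59 to -0.37), against 27.2% of all genes. The arrays of the experiments did not overlap for Retnla, Ccl24 and Fabp4 (3.93% of all genes on that side) and for Il4ra (8.91% on the other). Chil3 differed by only 0.08 log2 (-0.12 to 0.21). The gap of Klf4 was 1.14 to 1.23 log2 in the 3 unstimulated groups and -0.02 to 0.56 in the 4 stimulated ones. The median gap of the 10 genes was 0.65 log2, beside -0.05 over all genes.

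Markers of eosinophils moved with this gap: all 5 tested of 6 listed were higher in experiment 1 in all 7 groups. Prg2, the gene of major basic protein, was 2.44 log2 higher and Epx, eosinophil peroxidase, 1.75 higher. The log2 of the summed level of the 5 was 13.01 to 13.5 in experiment 1 and 11.1 to 11.4 in experiment 2. Alveolar macrophage markers, which include Siglecf of the eosinophil list, summed to 12.6 to 13.3 against 11.3 to 12.1, with Car4 2.52 and Siglecf 1.70 log2 higher. Of the 5 tested, 3 were higher in experiment 1 in all 7 groups, while Marco had a mean gap of -0.37 log2 and was higher in only 2 groups. Macrophage markers summed to 16.49 to 16.65 against 16.21 to 16.46, which did not overlap. Dendritic cell markers summed to 16.5 to 16.8 against 16.7 to 16.8, and granulocyte markers to 16.4 to 16.7 against 16.3 to 16.5. Such sums are set mostly by the brightest genes, and single markers differed more. Of 10 dendritic cell markers 1, Itgax (0.63 log2), was higher in experiment 1 in all 7 groups and 3 were lower, Cd86 (-1.10) among them. Of 9 macrophage markers 4 were higher, such as Mertk (0.69), and 1 was lower, Adgre1 (-0.36). Of 9 granulocyte markers 2 were higher and 2 lower, such as Camp (0.76) and Mpo (-0.69). Over all genes 9.97% were higher and 27.2% lower. The part of any of these marker lists in the gap of Retnla, Ccl24 and the others was not tested. The other alternative activation markers did not share 1 direction: 7 of 22 were higher and 2 lower in experiment 1 in all 7 groups, with a median gap of 0.10 log2. Mrc1, the mannose receptor gene, had a gap of 2.41 log2 and F13a1 of 1.45, whereas Cdh1 was at -1.42 and Arg1 at -1.08, the latter pair named after their values were seen. Of 21 PPAR gamma partners and lipid targets 8 were higher and 0 lower in all 7 groups. Of 16 KLF and EGR factors 6 were higher and 1 lower. The interleukin-4 and interleukin-13 signalling list had 1 of 14 higher and 3 lower, and the lipoxygenase list 0 of 8 higher and 2 lower.

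**Figure D5:**
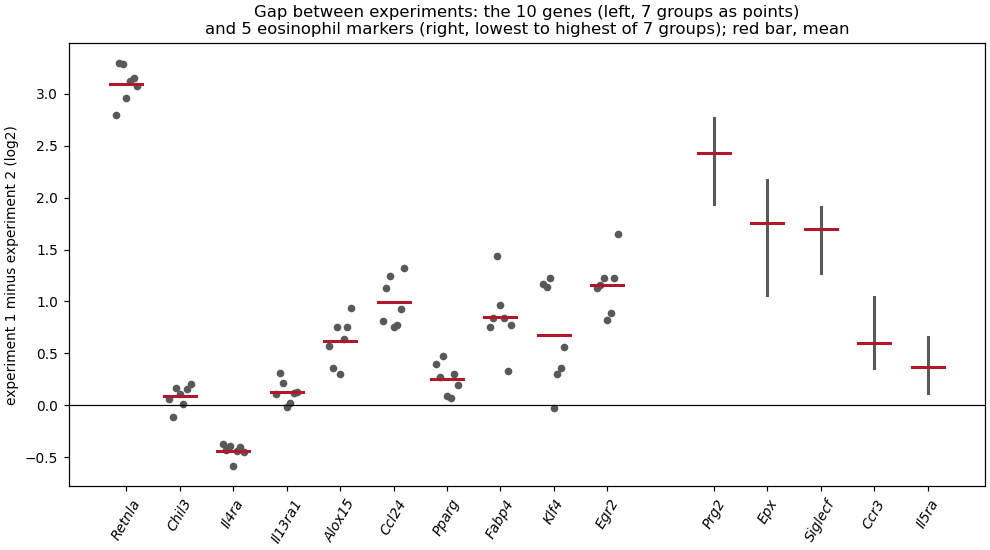
Level in experiment 1 minus level in experiment 2 (log2) for the 10 genes, with 1 point per treatment group, and for 5 eosinophil markers, shown as the lowest to highest of the 7 groups; the red bar is the mean. Retnla stands at 3.10 log2 with no group under 2.80, Il4ra lies below 0 in all 7 groups, and the eosinophil marker Prg2 has a mean of 2.44.

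The eosinophil markers were not called with CpG or TNF-alpha in solvent, with 0 of 5 in either fit and medians of 0.21 and 0.24 log2. Of the macrophage markers 3 of 9 passed limma with CpG in solvent and the block, all lower, where 19.9% of all genes passed and 13.7% passed lower. These were C1qa at -1.51, Csf1r at -0.40 and Cd68 at -0.32 log2. Of the 9 markers 4 had a mean difference above 0, among them Fcgr1 (0.57) and Cd14 (0.33), named after their values were seen, and the list median was -0.10 log2. The summed macrophage level was 16.7 and 16.4 with solvent and 16.6 and 16.3 with CpG. Of the 5 alveolar macrophage markers tested, 1 passed limma with CpG in solvent without the block (1.92% of all genes). This was Marco, 2.99 log2 higher (adjusted p = 0.0341). With the block 2 passed, Marco and Fabp1, both higher (19.9% of all genes). Of the 5 markers 3 had a mean difference above 0, and the list median was 0.11 log2. Their part in the differences of the 10 genes was not tested.

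Across the 14 arrays, after each experiment's mean was subtracted, some of the 10 genes followed one another. Pparg and Klf4 correlated with r = 0.91, Alox15 and Egr2 with 0.86, Ccl24 and Egr2 with 0.84, and Il4ra and Il13ra1 with 0.83. Retnla and Chil3 correlated with 0.42, and Klf4 and Chil3 with -0.46. The genes most like Klf4 among all tested were Prune2 and Qars (r = 0.99 each), those most like Egr2 were Cass4 and Gpr137b-ps (0.97 each), and those most like Pparg were Hddc3 (0.98) and Aimp1 (0.97). Alox15 was most like Mapk14 (0.97) and Flot1 (0.96), Il4ra most like Dnmt3a (0.97) and Vhl (0.94), Il13ra1 most like Dctn4 (0.92) and Lgalsl (0.91), and Ccl24 most like Panx1 and Ubqln2 (0.94 each). Chil3 was most like Stfa2l1 (0.92) and Stfa3 (0.91), Retnla most like Vwa7 (0.87) and Dynlt3 (0.82), and Fabp4 most like Ednrb and Top3a (0.86 each). These values describe arrays that share experiments and stimuli, and the most alike genes were picked as the highest of all tested genes.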

How the data were processed

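RNA of 14 cultures (100 ng each) was hybridised to arrays of 45101 probe sets, 1 array per culture. The authors deposited log2 values, made with RMA in R 3.0.1 per the submitters' processing notes, and these were used unchanged. The labels do not state which background and summary settings RMA had. Array medians lay between 7.48 and 7.54. With 2 arrays per group the precision is limited.

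Of the probe sets 34945 named 1 gene in the platform annotation, 932 several, 9160 none and 64 were controls; 34741 matched a RefSeq gene ID and 0 symbols were updated. Each gene took its single-gene probe set with the highest mean, and genes above the overall median of 7.52 on at least 2 arrays were tested (12172 of 18193). A probe set annotated to both Chil3 and Chil4 was not used.

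Group means were fitted to all 14 arrays in limma 3.58.1 (R 4.3.3), 12 comparisons, 2-sided, Benjamini-Hochberg over all tested genes, threshold 0.05. The main model has no experiment term, so its standard errors include the gap between experiments. Replicate numbers pair the arrays, since the design text names 2 independent experiments and all 21 pairs of groups had r over 0.1 (0.455 to 0.935). The model that adds the experiment (6 residual degrees of freedom against 7) is therefore printed beside it, as the block. The script was tested on simulated data. There each gene had the same gap between experiments in all groups, so a gap that varies with treatment, as that of Klf4 did, was not tested.

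The 10 genes, related lists, cell type markers and tests were chosen with earlier results of these data known. Of each list the text names called genes, at most the 3 largest, or else at most the 2 largest, and the 2 most alike genes per member. Promoter windows (250 bases before to 50 after the start) were searched for 7 motifs with Python 3.11.15. Alternatives were other probe set choices, no filter, cyclic loess, reference genes, array weights, a trended prior, only the compared groups and leaving out each array, and each of these with the block for the 4 stimulus comparisons, the latter chosen after seeing the data.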

Additional observations from a re-analysis of the deposited data

How the results depend on the processing

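Of the members of the list, 0 of 10 changed in each of the 12 comparisons under every alternative without the experiment term, leaving out arrays included. The replicate block gave 4 for CpG in solvent, 2 for CpG after CLIK148 and 1 for TNF-alpha after CA074Me, and it changed no other member call. With the block kept, CpG in solvent called 2 of the 10 with cyclic loess (2316 of 12172 genes) and 1 with array weights (777 genes). CpG after CLIK148 called 1 with cyclic loess (1728 genes). With only the compared groups both called 0 of the 10 and 0 of all genes. TNF-alpha after CA074Me called 2 with the mean of probe sets (1288 of 11346 genes) and 3 with cyclic loess (1590 of 12172). It called 3 with array weights (2651 genes) and 4 with only the compared groups (3560 genes). TNF-alpha in solvent called 1 with array weights (Klf4, limma adjusted p = 0.0423), where 1935 genes passed. Leaving out 1 array with the block also removed or added calls, as it did over the whole array. Klf4 then lay between -0.60 and -1.41 log2 for CpG in solvent and between -0.82 and -1.46 for TNF-alpha after CA074Me. Egr2 lay between -0.98 and -1.29 for CpG after CLIK148. Klf4 with CpG in solvent missed the threshold in the blocked fit with no filter (0.0533), with all probe sets (0.0505) and with array weights (0.122), and Pparg and Alox15 missed it with cyclic loess (0.0556 and 0.0569) and array weights (0.114 and 0.156). The cause was not tested.

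Genes called over the whole array moved by over 1.5 times as follows. CpG in solvent called 234, and 353 with all probe sets, 48 with array weights, 0 with only the compared groups, 2420 with the block and 1 to 1611 when 1 array was left out. TNF-alpha in solvent called 14, and 23 with cyclic loess, 1 with reference genes, 34 with array weights, 0 with only the compared groups, 379 with the block and 0 to 18 without 1 array. CpG after CLIK148 called 99, and 175 with cyclic loess, 155 with array weights, 0 with only the compared groups, 2077 with the block and 1 to 335 without 1 array. TNF-alpha after CA074Me called 159, and 239 with all probe sets, 369 with array weights, 0 with only the compared groups, 1355 with the block and 5 to 213 without 1 array. CpG against TNF-alpha called 1, and 2 with the mean of probe sets or a trended prior, 0 with only the compared groups, 53 with the block and 0 to 4 without 1 array. With the arrays all kept, 1072 of 1080 member values stayed on their side of the threshold and did not turn sign by more than 1 SE. Among these, 33 turned sign by less than 1 SE. A further 7 gained a call, all with the block. Il13ra1 with CpG in solvent turned from -0.09 to 0.0777 log2 with the mean of its probe sets. Neither other scaling moved the median of all genes by 0.1 log2.

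Leaving out 1 array in the fit without the experiment mixes a comparison with the gap between experiments. Of 1680 such values 27 turned sign by more than the spread (the SE). Another 179 turned sign by less, so a gene not listed below did not always keep its direction. Retnla, whose SE was 1.94, went from -1.41 to 1.55 log2 for CpG in solvent and from -1.37 to 1.79 for TNF-alpha in solvent. In log2 the ranges of the genes with the 27 values were these. For CpG in solvent they were Il4ra -0.49 to 0.096. For TNF-alpha in solvent they were Pparg -0.35 to 0.048. For CpG against TNF-alpha they were Il4ra -0.56 to 0.029. For CLIK148 alone they were Il13ra1 -0.12 to 0.18, Pparg -0.17 to 0.22 and Klf4 -0.69 to 0.48. For CA074Me alone they were Pparg -0.33 to 0.15, Fabp4 -0.31 to 1.12 and Klf4 -0.68 to 0.55. For CLIK148 against CA074Me they were Pparg -0.13 to 0.35, Fabp4 -1.16 to 0.28 and Klf4 -0.65 to 0.58. For CLIK148 under CpG they were Il4ra -0.25 to 0.33. For CA074Me under TNF-alpha they were Chil3 -0.14 to 0.069, Alox15 -0.57 to 0.37, Ccl24 -0.44 to 0.88 and Egr2 -0.68 to 0.97. For CpG after CLIK148 they were Il13ra1 -0.30 to 0.0039. For TNF-alpha after CA074Me they were Alox15 -0.80 to 0.14, Ccl24 -0.64 to 0.68, Pparg -0.45 to 0.024, Fabp4 -0.73 to 0.71 and Egr2 -0.96 to 0.69.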
